A study of Mus musculus with 79 samples.

Results

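Quadriceps transcripts of 10 genes that mark muscle atrophy and the FOXO response to fasting were examined across the BXD family, a panel of inbred mouse strains bred from C57BL/6J and DBA/2J parents. The genes were chosen by name, as the rows of the deposited table whose symbol was Fbxo32, Trim63, Foxo1, Foxo3, Fbxo30, Fbxo21, Eif4ebp1, Ddit4, Cdkn1a or Klf15. All 10 were found among 22335 gene symbols, on 11 of 35556 probesets, and the probeset with the highest mean stood for Foxo3, which had 2. Every gene lay in the brighter part of the array, from the 74.4th percentile of mean value for Ddit4 to the 99.0th for Fbxo32.

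All mice were males, were fasted overnight and were sacrificed at 29 weeks of age. The 42 arrays of the CD group came from strains on a Harlan chow diet, and the 37 arrays of the HFD group from strains on a Harlan high fat diet that began at 8 weeks of age. Each array held 1 pool of about 5 animals of 1 strain on 1 diet, so the spread between animals was not measured, and no fed animals were among these samples, so no value here is a response to fasting. The arrays covered 42 strains, 40 of them BXD and the others the parents C57BL/6J and DBA/2J, and 37 strains had an array on each diet. The titles name 2 batches, and the protocols state that RNA was extracted, and arrays were run, at 2 times. Batch 1 comprised 18 CD and 17 HFD pools, batch 2 held 24 and 20. Values are log-like units, scaled so that each array averages 8.0 with an SD of 2.0. The log base was not stated, and folds are therefore called nominal (2 to the power of the difference).

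In skeletal muscle the transcription factors FOXO1 and FOXO3 are held in the cytoplasm by insulin and Akt signalling, and enter the nucleus when insulin falls, as in fasting. They activate genes of protein breakdown, among them the ubiquitin ligases atrogin-1 (Fbxo32) and MuRF1 (Trim63), which mark sarcomeric and other proteins for the proteasome. Glucocorticoids, which rise in fasting, act on several of the same genes through the glucocorticoid receptor, and KLF15 is one of their targets in muscle.

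As background for genes that move together, the RefSeq promoter windows of the genes (GRCm38.p6, 250 bases before to 50 after the start) were searched on both strands for a forkhead motif (GTAAACA), a motif (AGAACA) that is only a single arm of the palindrome bound by the glucocorticoid receptor, and an E-box (CACGTG), the last being the site that clock and MYC-type factors bind. Windows were found for 8 of the 10 genes (9 windows), and those of 2 genes held a match. The Trim63 stretch is shown because a reversed arm of the receptor palindrome lies directly before a reversed forkhead motif, and the Klf15 stretch because it holds E-boxes. Both stretches run 5′ to 3′ on the + strand from position -250 to -131 relative to the start, Trim63 at chr4:134314870-134314989 and Klf15 at chr6:90462326-90462445, and capitals mark the motifs.
Trim63: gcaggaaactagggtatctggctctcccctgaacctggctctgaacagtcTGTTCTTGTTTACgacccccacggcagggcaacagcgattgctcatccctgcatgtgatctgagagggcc
Klf15: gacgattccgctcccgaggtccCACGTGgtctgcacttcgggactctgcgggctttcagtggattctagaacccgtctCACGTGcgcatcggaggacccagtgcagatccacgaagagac
Over all 32851 promoter windows, 3.65% held the forkhead motif, 18.97% the single arm of the receptor palindrome and 7.15% the E-box. The adjoining arrangement seen in Trim63, which was looked for after its letters were read, was present in 2 of the 32851 windows (0.00609%). Klf15 had 3 E-boxes, the last of them at the start itself and outside the stretch shown, as many or more being present in 29 windows (0.0883%). A match of letters is a description and does not show that a factor binds there.

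One strain stood apart from the rest. Over 1154 olfactory receptor probesets, which serve as probes for transcripts that muscle should lack, the HFD minus CD profile of BXD63 correlated at r = -0.537 with the mean of the other strains, whereas each of the 36 others correlated at 0.421 to 0.649. The 36 others thus shared a diet profile in such probesets, and what it rests on was not tested. It can enter any diet difference given below. Values without BXD63 are given beside the results that this strain moved most. The muscle label fitted the data, since 8 fibre genes (Acta1, Ckm and others) had a mean level of 14.19 to 14.68 on every array. Of 10 adipocyte markers 7 were higher and 1 (Cfd) lower in HFD, with a mean level over the list of 9.11 to 10.57 in CD and 9.27 to 10.85 in HFD. Lep, the gene for leptin, rose by 1.58 ± 0.19 (SE). In BXD63 itself Lep was higher in HFD by 1.258, and 9 of the 10 adipocyte markers were higher. Of 6 macrophage markers 5 were higher in HFD, at a mean level of 7.96 to 8.60 in CD and 8.03 to 9.00 in HFD, whereas the levels of slow fibre genes (0 of 7 called) spanned 8.54 to 11.18 and 8.32 to 10.98. In pooled tissue, fewer cells of a type and less RNA per cell cannot be told apart.

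The diet comparison asked whether fasted muscle held different amounts of these transcripts after high fat feeding. Trim63, Fbxo32, Foxo1 and Klf15 were lower in HFD than in CD, and none of the 10 genes was called higher (limma, Benjamini-Hochberg over all probesets, adjusted p below 0.05). The count of 4 of 10 stood beside 38.1% of all 35556 probesets called in either direction, 19.3% of them lower and 18.9% higher. Of the 10 genes, 9 had a difference below 0, with a median of -0.146 against -0.001 over all probesets. Among the brighter probesets, to which all 10 genes belong, the fit called 29.8%, with 12.6% lower and 17.1% higher.

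Trim63 had the largest difference. Across the 42 CD arrays its value ran from 11.613 to 13.516 with a median of 12.506, and across the 37 HFD arrays from 11.462 to 13.276 with a median of 12.025, so that the diets overlapped over most of their range. The difference was -0.341 ± 0.104 (SE, adjusted p = 0.0063 by limma) and was below 0 in 31 of 37 strains. Fbxo32 ran from 12.838 to 13.991 in CD, with a median of 13.498, and from 12.607 to 13.837 in HFD, with a median of 13.355. It differed by -0.174 ± 0.065 (SE, adjusted p = 0.0279 by limma) and was lower in 29 of 37 strains. The call on Fbxo32 was close to the threshold, with an adjusted p of 0.0422 by limma without BXD63 and of 0.0509 without BXD75, the only 1 of the 42 strains whose removal ended it.

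Foxo1 and Klf15 are the regulators in the called group. Foxo1 ran from 9.821 to 10.844 in CD (median 10.175) and from 9.686 to 10.751 in HFD (median 9.988). Its difference was -0.173 ± 0.058 (SE, adjusted p = 0.0125 by limma), with 29 of 37 strains lower. Klf15, a zinc finger factor that promotes amino acid catabolism in fasting, ran from 9.761 to 10.689 in CD (median 10.167) and from 9.630 to 10.376 in HFD (median 10.060). It differed by -0.121 ± 0.041 (SE, adjusted p = 0.0129 by limma) and was lower in 24 of 37 strains. The calls on Trim63, Foxo1 and Klf15 held in each of the 42 fits that left out 1 strain.

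**Figure D1:**
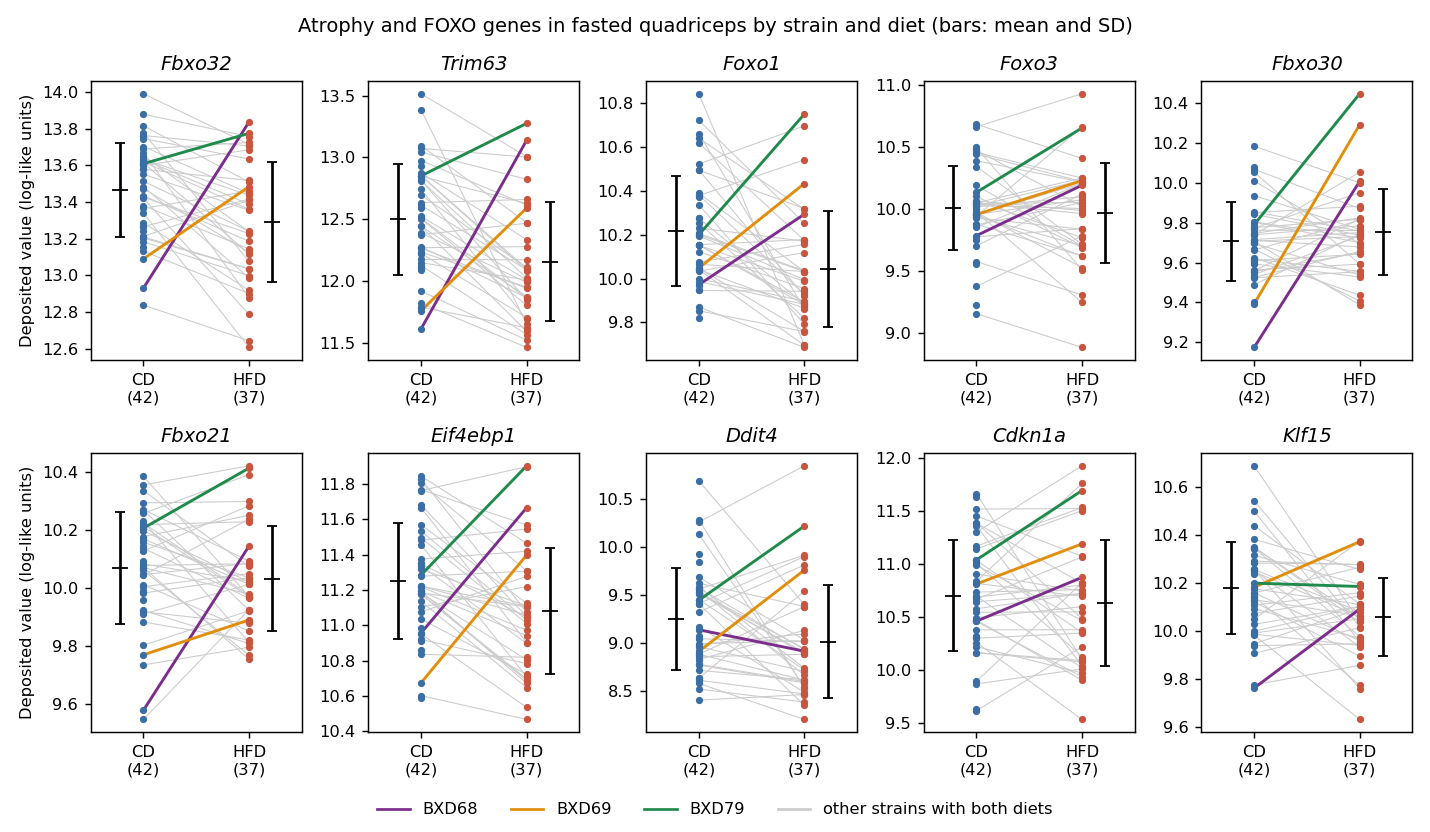
Deposited value (log-like units) of each of the 10 genes on CD (42 arrays) and HFD (37 arrays). Each point is 1 pool, grey or coloured lines join the arrays of a strain with both diets, and black bars give the mean and SD. Most lines for Trim63 slope down, from a mean of 12.499 to 12.157, whereas the coloured lines of BXD68, BXD69 and BXD79 slope up.

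The other regulators were less clear. Eif4ebp1, which encodes the repressor of cap-dependent translation that mTORC1 inactivates, ran from 10.592 to 11.845 in CD (median 11.220) and from 10.468 to 11.904 in HFD (median 11.050). Its difference of -0.171 ± 0.076 (SE) did not pass the threshold over all arrays (adjusted p = 0.0672 by limma), although 28 of 37 strains were lower. With strain as a block the difference was -0.210 ± 0.060 and passed (adjusted p = 0.00486 by limma), as it did over the paired strains alone (-0.215, adjusted p = 0.0232 by limma) and with the olfactory receptor covariate (-0.209, adjusted p = 0.0481 by limma). Ddit4, which encodes the mTORC1 inhibitor REDD1, ran from 8.405 to 10.686 in CD (median 9.154) and from 8.204 to 10.843 in HFD (median 8.901). Its difference of -0.236 ± 0.124 (SE, adjusted p = 0.126 by limma) was larger than that of Fbxo32 but did not pass, against a spread between strains of 0.531 (SD) in CD and 0.583 in HFD.

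The remaining members gave differences that were small against their spread. Foxo3 differed by -0.039, with a 95% confidence interval of -0.205 to 0.126, and its other probeset by -0.054 ± 0.037 (SE, adjusted p = 0.257 by limma). Cdkn1a, the cell cycle inhibitor p21 and a target of both FOXO factors and p53, differed by -0.067 (interval -0.314 to 0.180). By strain Cdkn1a was higher in HFD in 20 of 37, with a median difference of 0.004. Fbxo21, an F-box ligase gene that rises in denervated muscle, differed by -0.036 (interval -0.120 to 0.048). Fbxo30, which encodes the ligase MUSA1, was the only member above 0, at 0.046 (interval -0.047 to 0.139). Its direction depended on the fit, since it was -0.02 with the mean of the olfactory receptor probesets as a covariate.

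For the 4 called genes the differences were of like size in both batches, although the smaller fits made fewer calls. The 4 had been called on both batches together, so the batches are not an independent check. For Trim63 the difference was -0.343 in batch 1 (35 arrays, adjusted p = 0.196 by limma) and -0.339 in batch 2 (44 arrays, adjusted p = 0.041 by limma). For Foxo1 it was -0.172 and -0.174, for Klf15 -0.133 and -0.112, and for Fbxo32 -0.206 and -0.148. Among the genes not called, Cdkn1a differed by -0.012 and -0.112 and Fbxo21 by -0.004 and -0.062. Adipocyte and macrophage markers moved with diet, as given above, and so did 3 of 5 endothelial markers (Pecam1, Cdh5 and Kdr, all higher in HFD), at a mean level of 9.60 to 10.45 in CD and 9.99 to 10.59 in HFD. The part of the endothelial markers in the members' differences was not tested. With the adipocyte score as a covariate the difference of Fbxo32 was -0.143 (adjusted p = 0.138 by limma) and that of Klf15 -0.098 (0.0949), and both lost their call. With the macrophage score these values were -0.152 (adjusted p = 0.101 by limma) and -0.108 (0.0553), and Trim63 and Foxo1 kept their calls under both scores. With the mean of the olfactory receptor probesets as a covariate all 4 genes kept their calls. Their differences were then -0.426 for Trim63, -0.247 for Foxo1, -0.205 for Fbxo32 and -0.127 for Klf15. That fit called 11033 of 35556 probesets.

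**Figure D2:**
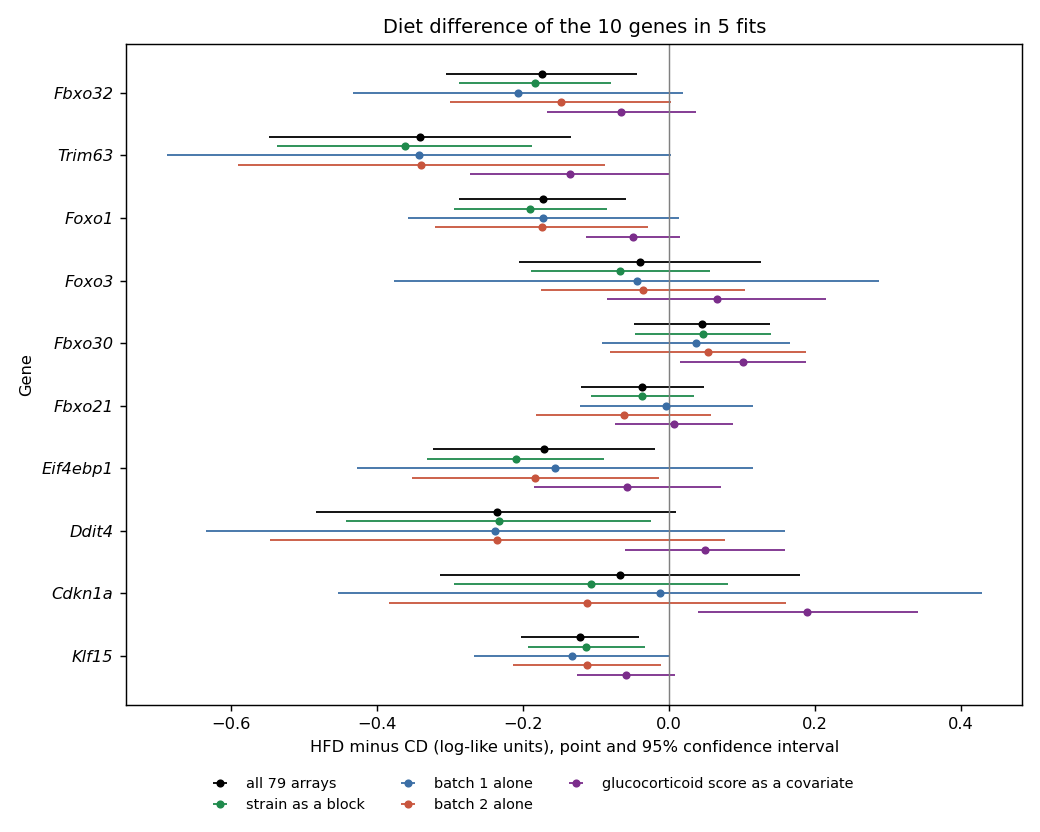
HFD minus CD difference (log-like units) of each gene with its 95% confidence interval in 5 limma fits, over all 79 arrays, with strain as a block, within batch 1, within batch 2 and with the score of glucocorticoid response genes as a covariate. The points of Trim63 lie at -0.341, -0.362, -0.343, -0.339 and -0.136 in that order.

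Other genes of the same pathways were taken from fixed lists, whose counts are to be read against the 18.9% of all probesets called higher and the 19.3% called lower. Several of them lay at or below those shares. Of 14 further ubiquitin ligase genes of atrophy, 4 fell and 2 rose, with a median difference of -0.005. Cblb, a ligase that targets IRS1, fell by 0.18 ± 0.06 (SE), and Trim54 (MuRF3) fell by 0.12 ± 0.02. Trim55 (MuRF2), a paralog of Trim63, went the other way, at 0.20 ± 0.04, as did Trim32 at 0.08 ± 0.03. All 6 passed limma at an adjusted p below 0.05, as did every gene said to rise or fall in the next paragraph.

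Of 14 autophagy genes 2 rose and none fell, Atg12 by 0.13 ± 0.03 (SE) and Gabarap by 0.05 ± 0.02. Of 14 other FOXO targets 4 rose and 3 fell. Angptl4, an inhibitor of lipoprotein lipase that PPAR factors also induce, rose by 0.54 ± 0.10 and Cat, encoding catalase, by 0.26 ± 0.04, whereas Txnip fell by 0.13 ± 0.03 and Irs2 by 0.12 ± 0.04. The FOXO and PPAR target Pdk4, which restrains glucose oxidation in fasting, had a mean of 14.47 in CD and 14.43 in HFD and did not pass (adjusted p = 0.566 by limma). Of 18 genes of insulin, Akt and mTOR signalling 3 rose and 2 fell, led by Irs1 (0.24 ± 0.07) and Igf1 (0.16 ± 0.06) upward and Igf1r (-0.12 ± 0.04) and Tsc1 (-0.10 ± 0.02) downward. Of 7 KLF15 targets in amino acid catabolism Prodh (-0.14 ± 0.03) and Aldh6a1 (-0.08 ± 0.03) fell and Gpt (0.13 ± 0.04) rose. None of 10 p53 targets was called. Of 8 genes that rise on denervation 4 rose and none fell, with Ncam1 (0.17 ± 0.04) and Runx1 (0.15 ± 0.05) in the lead.

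The glucocorticoid response genes were lower in HFD where they were called. Of 12, 4 fell and none rose, with a median difference of -0.136. Cebpd, a C/EBP transcription factor, fell by 0.32 ± 0.10 (SE), Glul, encoding glutamine synthetase, by 0.24 ± 0.09, Tsc22d3, encoding GILZ, by 0.21 ± 0.05 and Errfi1 by 0.18 ± 0.05. Fkbp5, a co-chaperone of the receptor, differed by -0.158 ± 0.105 (SE) and Nr3c1, the receptor itself, by 0.030 ± 0.027, and neither passed. With the score of these 12 genes as a covariate, the difference of Trim63 was -0.136 (adjusted p = 0.112 by limma), that of Fbxo32 -0.065 (0.333), that of Foxo1 -0.049 (0.23) and that of Klf15 -0.059 (0.163). In that fit the median difference of the 10 genes was -0.021, and Cdkn1a was the only member called, at 0.190 (adjusted p = 0.0375 by limma). Over all 35556 probesets that fit called 14020. The score and the 10 genes were read from the same arrays, and what their relation rests on was not tested. Of 12 clock genes Arntl alone was called, lower by 0.22 ± 0.06, and the same 4 members kept their calls with the clock score as a covariate.

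For each of the 10 genes the SD across strains within a diet was larger than the difference between diets. From the lowest to the highest strain Ddit4 spanned a nominal 4.86-fold in CD and 6.23-fold in HFD, and Cdkn1a 4.14-fold and 5.27-fold. Trim63 spanned 3.74-fold and 3.52-fold and Foxo3 2.88-fold and 4.13-fold. Fbxo32, at 2.22-fold and 2.35-fold, and Foxo1, at 2.03-fold and 2.09-fold, were intermediate, and Fbxo21 spanned 1.79-fold and 1.59-fold. Without BXD63, which was the lowest strain for 5 of the genes in HFD and for Ddit4 in CD, the span was 3.38-fold for Trim63 and 2.29-fold for Fbxo32 in HFD, 1.53-fold for Klf15 in HFD (1.68-fold with it) and 4.49-fold for Ddit4 in CD. A range rests on 2 arrays, and between the 10th and 90th percentiles Ddit4 spanned 2.43-fold in CD and 2.60-fold in HFD. Among the brighter probesets, which had a median SD of 0.145 in CD, the SD of Ddit4 and that of Cdkn1a were at the 98.7th percentile, that of Trim63 at the 97.9th and that of Klf15 at the 74.8th.

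The same strains recurred at the extremes. BXD43 was the highest of 42 for Fbxo32 and Trim63 in CD and BXD70 the highest for Foxo1 and Klf15. BXD68 was the lowest for Trim63, Fbxo30 and Klf15 in CD, with BXD69 next for the first of these. In HFD BXD79 was the highest of 37 for Trim63, Foxo1, Fbxo30 and Eif4ebp1, BXD44 for Foxo3, Ddit4 and Cdkn1a, and BXD63 the lowest for Fbxo32, Trim63, Foxo1, Fbxo30 and Klf15. DBA/2J was the lowest strain for Fbxo32 in CD, at 12.838, and C57BL/6J the lowest for Cdkn1a, at 9.615. Between the parents limma called 1.26% of all probesets and 0 of the 10 genes. At an unadjusted p below 0.05, which 8.31% of all probesets reached, the count was 1, Fbxo21, which was lower in C57BL/6J than in DBA/2J by 0.405 ± 0.148 (SE, adjusted p = 0.262 by limma), and each parent had 1 array per diet.

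The diet difference varied by strain. The 4 called genes were all lower in HFD in 20 of 37 strains and all higher in 3, which were BXD68, BXD69 and BXD97. The 4 were called on these same arrays and moved together across strains, so such counts are a description only. In 4 strains (BXD70, BXD73, BXD75 and BXD103) all 10 genes were lower, and in BXD69 and BXD97 all 10 were higher. The largest change of Trim63 was in BXD70, from 13.383 in CD to 11.651 in HFD, and the next in the same direction were -1.051 in BXD75 and -0.966 in BXD87.

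BXD68 moved furthest the other way. Its Trim63 was 11.613 in CD, the lowest of 42, and 13.140 in HFD, the second of 37, a difference of 1.527. Its Fbxo32 went from 12.931, the 41st of 42, to 13.837, the highest of 37. BXD69 followed, with Trim63 at 11.759 in CD and 12.591 in HFD, and then BXD79, at 12.851 and 13.276. Measures that tracked diet elsewhere followed the labels in part. The olfactory receptor profile of BXD68 correlated at 0.647 with the other strains, that of BXD69 at 0.525 and that of BXD79 at 0.560, and Lep was higher in HFD by 0.793, 0.655 and 1.793 respectively. Of the 10 adipocyte markers 9 were higher in HFD in BXD68 and 10 in BXD79, but 5 in BXD69 and 3 in BXD70. In BXD70 Lep was higher in HFD by 1.313, and its olfactory receptor profile correlated at 0.578 with the other strains. The mean of the 12 glucocorticoid response genes was higher in HFD by 0.189 in BXD68, where only 5 of the 12 were higher, by 0.274 in BXD69 (8 of 12) and by 0.269 in BXD79 (7 of 12). In BXD70 it was lower by 0.858, with 1 of the 12 higher. These strains were picked out with their values in view, and each difference rests on 1 pool per diet.

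**Figure D3:**
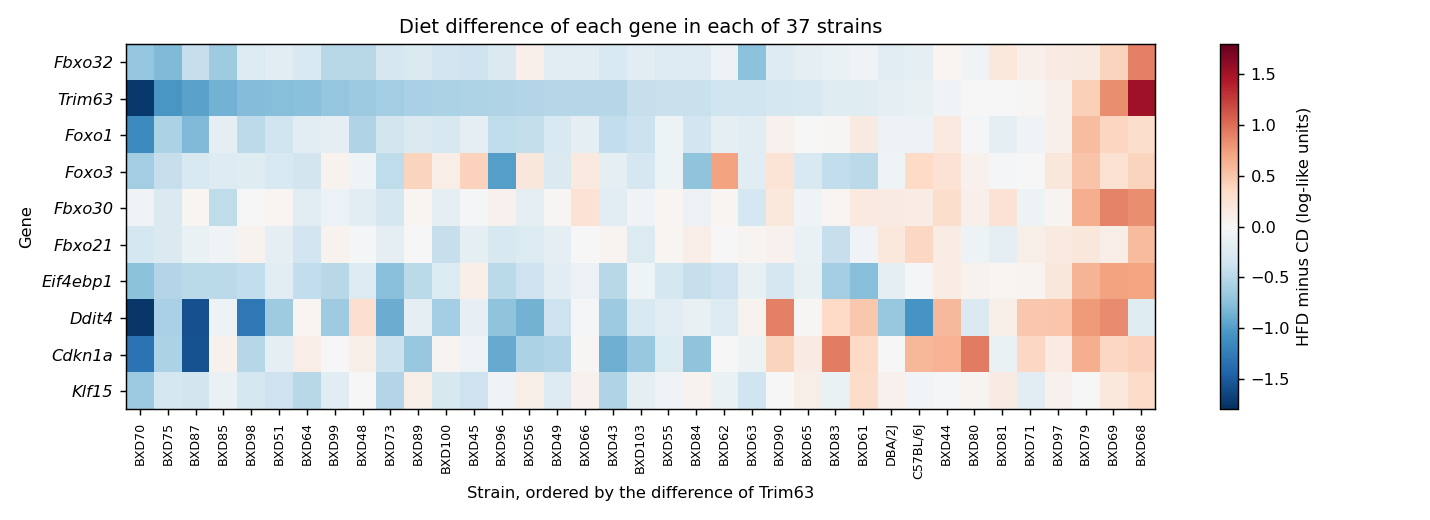
HFD minus CD difference (colour, log-like units) of each gene in each of the 37 strains with both diets, ordered by Trim63. Columns at the left, led by BXD70 at -1.732 for Trim63, are blue for most genes, and columns at the right, ending with BXD68 at 1.527, are red for most genes.

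Whether strains kept their order between diets was asked next. The correlation across 37 strains between CD and HFD, after batch means were removed, had a median of 0.371 over the 10 genes, against 0.14 over all probesets and 0.236 over the brighter ones. It passed for 2 of the 10 genes when adjusted over all probesets, of which 10.6% passed, and the share among the brighter probesets, to which all 10 genes belong, was 18.1%, close to that of the members. For Foxo3 r was 0.492 (permutation p = 0.00203, adjusted p = 0.0246) and rho 0.311 (permutation p = 0.061), and r was 0.312 without the 2 strains farthest from the median, so the relation rested on few strains. For Cdkn1a r was 0.450 (permutation p = 0.0053, adjusted p = 0.0492), rho 0.496 (permutation p = 0.00189) and r without the 2 farthest strains 0.534. This call was marginal, since it held in 9 of the 37 fits that left out 1 strain, with an adjusted p of up to 0.112 (without BXD44) and of 0.0661 without BXD63 (r = 0.437). That of Foxo3 held in 34 of 37, with up to 0.221 (without BXD65). Fbxo32 gave r = 0.444 (permutation p = 0.00574, adjusted p = 0.0539), Trim63 0.339 (0.0403, adjusted 0.193, and 0.288 with a permutation p of 0.0885 without BXD63) and Klf15 0.147 (0.384, adjusted 0.676, and 0.0856 with a permutation p of 0.618 without BXD63). Without the parental strains r was 0.317 for Fbxo32 (permutation p = 0.0649) and 0.289 for Trim63 (permutation p = 0.0937).

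Within batches r was above 0 in all 3 sets of strains for 4 of the 10 genes and not for the other 6. Among the 12 strains with both arrays in batch 1, r was 0.863 for Fbxo32, 0.846 for Trim63, 0.791 for Eif4ebp1 and 0.741 for Foxo3. Among the 17 strains with both arrays in batch 2 these values were -0.287, -0.290, -0.0761 and 0.202, and among the 8 with 1 array in each batch 0.712, 0.572, 0.234 and 0.0687. The difference between batches was not tested. Besides Foxo3, the genes above 0 in all 3 sets were Cdkn1a (0.349, 0.403 and 0.680), Fbxo21 (0.513, 0.394 and 0.382) and Ddit4 (0.365, 0.266 and 0.517). BXD68 was among the batch 2 strains, and r there depended on single strains. Leaving out 1 strain at a time, it ran from -0.413 (without BXD79) to 0.0185 (without BXD68) for Fbxo32, from -0.541 to 0.0669 without the same strains for Trim63, and from 0.281 (without BXD98) to 0.596 (without BXD68) for Fbxo21. Over all strains, 6 of the 10 genes passed without BXD68 instead of 2, among them Fbxo32 (r = 0.602, adjusted p = 0.00247) and Trim63 (r = 0.527, adjusted p = 0.0138), and 4 passed without BXD69. Without BXD44 or BXD65 none did. The lowest r was 0.346 for Fbxo32 (without DBA/2J, adjusted p = 0.196) and 0.259 for Trim63 (without BXD43, adjusted p = 0.398). The share of all probesets that passed in these fits is not given, so the counts are not read as particular to the 10 genes.

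**Figure D4:**
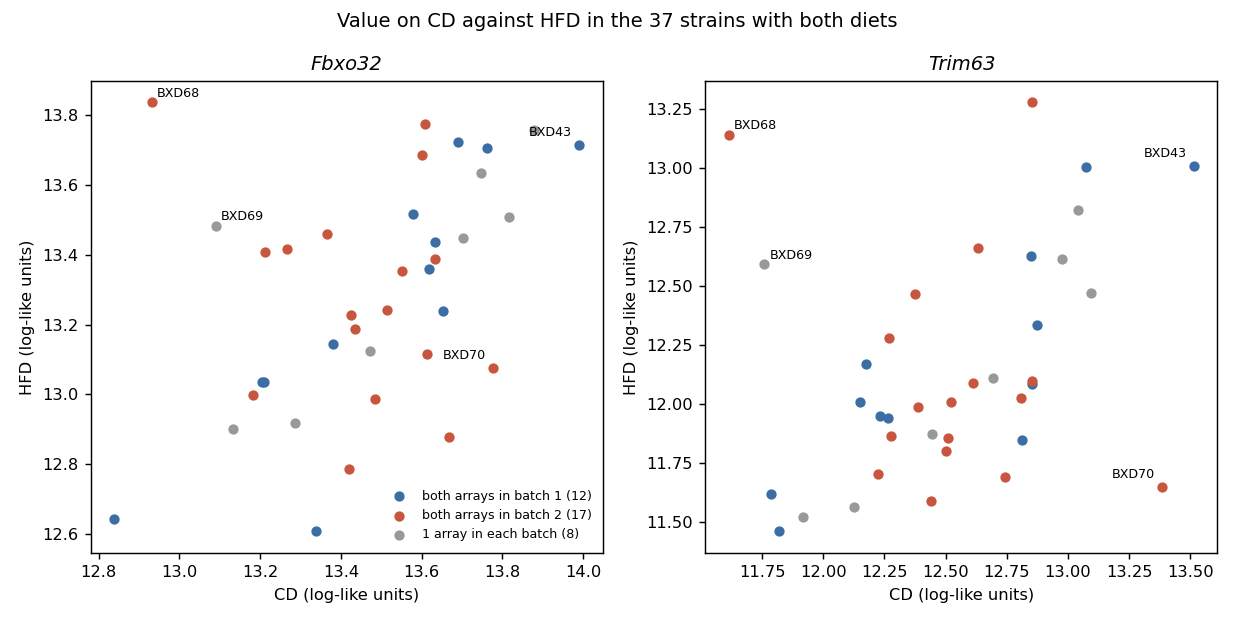
Value on CD (x axis) against HFD (y axis), in log-like units, for Fbxo32 and Trim63 in the 37 strains with both diets, coloured by batch. BXD68 and BXD69 lie above the other strains of like CD value in both panels, and BXD70 lies far below BXD43, the strain of nearest CD value, for Trim63.

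Across strains the 10 genes rose and fell together. Within CD 39 of the 45 pairs of genes correlated past the threshold, within HFD 42, and for the HFD minus CD difference 44, every one positive (two-sided permutation tests with 100000 draws, Benjamini-Hochberg over the 45 pairs of each family). By rho 36, 35 and 42 pairs passed. The median r was 0.513, 0.595 and 0.520. An r of at least 0.5 was reached by 26, 30 and 27 of the 45 pairs, where the 10 genes reached it with 0.895% of all other probesets in CD, 2.76% in HFD and 2.35% for the difference. These shares cover dim probesets too, whereas all 10 genes are among the brighter ones.

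The ligases Fbxo32 and Trim63 were the closest pair. Their r was 0.909 in CD, 0.917 in HFD and 0.882 for the difference, with rho of 0.910, 0.954 and 0.848 (permutation p = 1e-05 for each, the smallest the draws can give, adjusted p at most 6.43e-05). In CD r was 0.907 in batch 1 and 0.912 in batch 2, in HFD 0.926 and 0.916, and for the difference 0.472 over 12 strains and 0.925 over 17. Foxo1 correlated with Trim63 at 0.814 in CD and 0.830 in HFD, with Cdkn1a at 0.794 and 0.830 and with Ddit4 at 0.769 and 0.827. Foxo3 was closest to Eif4ebp1, at 0.655 in CD and 0.762 in HFD, and its 2 probesets correlated at 0.571 and 0.613.

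Some pairs did not pass. In CD 5 of the 6 that missed the threshold involved Fbxo30, whose r was 0.0929 with Cdkn1a, 0.144 with Foxo3 and 0.173 with Ddit4, although in HFD it reached 0.768 with Trim63 and 0.789 with Foxo1. Whether these correlations differ between diets was not tested. In HFD the 3 that missed it all involved Klf15, with r of 0.0621 with Foxo3, 0.103 with Fbxo21 and 0.256 with Eif4ebp1. Within batches r was above 0 for 45 and 44 of the 45 pairs in CD (batch 1 and 2), for 44 and 45 in HFD and for all 45 in both batches for the difference.

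**Figure D5:**
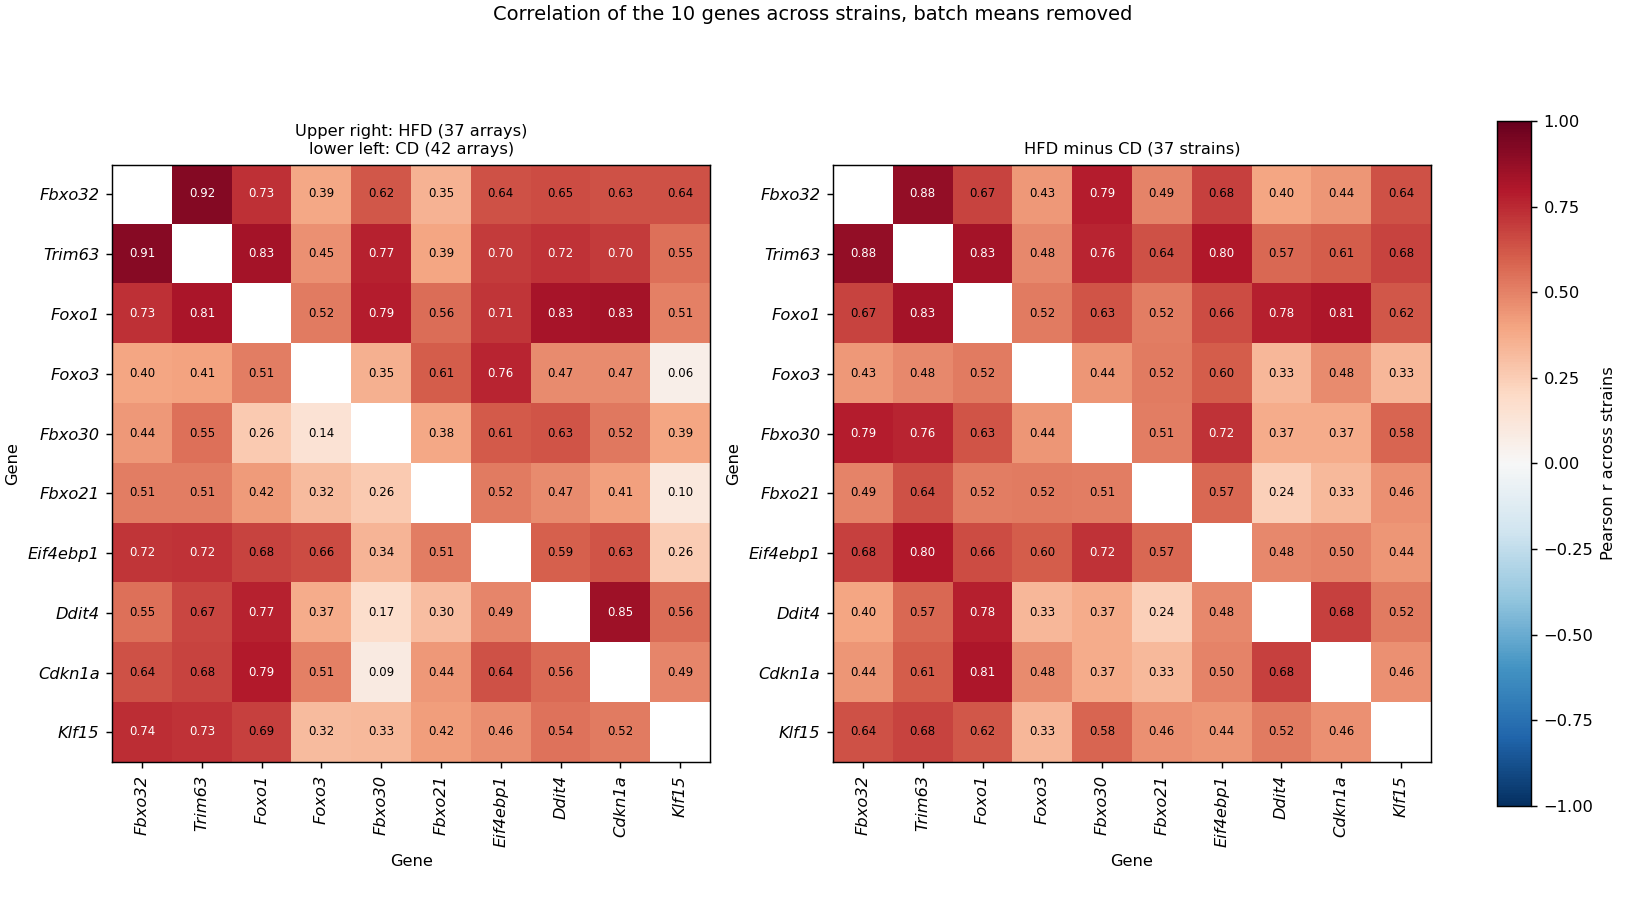
Pearson r across strains (colour and number) between each pair of the 10 genes after batch means were removed. The left panel gives CD (42 arrays) at the lower left and HFD (37 arrays) at the upper right, the right panel gives the HFD minus CD difference (37 strains), and Fbxo32 with Trim63 is the highest cell in each family (0.909, 0.917 and 0.882).

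The 10 genes were also set against scores of other lists, each the mean of standardised values, with 60 relations in each diet. The glucocorticoid response score correlated past the threshold with 8 of the 10 genes in CD and with all 10 in HFD, all positive. It was at least 0.5 with 7 and 9 of them, where 0.546% of all other probesets in CD and 3.31% in HFD reached that value. Ddit4, a direct glucocorticoid target, was highest, with r of 0.860 (rho 0.799) in CD and 0.950 (rho 0.903) in HFD. Foxo1 gave 0.847 and 0.849, Trim63 0.781 and 0.773, Cdkn1a 0.763 and 0.859 and Fbxo32 0.674 and 0.654, each with a permutation p of at most 3e-05 and an adjusted p of at most 0.0003. Fbxo30 gave 0.252 in CD (adjusted p = 0.43) and 0.663 in HFD (adjusted p = 0.00012). Within batches the values for Ddit4 were 0.887 and 0.843 in CD and 0.967 and 0.938 in HFD. By rho, Foxo3 (0.358, adjusted p = 0.125) and Fbxo21 (0.259, adjusted p = 0.369) did not pass in HFD, and without the 2 strains farthest from the median their r was 0.282 and 0.223.

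The clock score, in which a higher value means more of the Per and Dbp arm and less of Arntl, Clock and Npas2, passed for 0 genes in CD, where r ran from -0.226 to 0.355, and for 6 in HFD (5 by rho, without Ddit4), all negative. An r of -0.5 or below was reached by 2 of the 10 genes, Trim63 and Foxo1, and by 1.36% of all other probesets in HFD. In CD the batches had opposite signs for 8 of the 10 genes (-0.299 and 0.345 for Trim63, -0.250 and 0.469 for Fbxo32), and neither this nor the contrast between diets was tested. The lowest r in HFD was Trim63, at -0.574 (rho -0.557, permutation p = 0.00021, adjusted p = 0.00157), with -0.548 in batch 1 and -0.618 in batch 2. Scores of adipocyte, slow fibre, red blood cell and macrophage markers passed for none of the genes in either diet, with r between -0.339 and 0.329. The pooled values covered batches that differed, and for the adipocyte score in HFD the sign was opposite in batch 1 and batch 2 for 8 of the 10 genes (-0.527 and 0.432 for Trim63, -0.5 and 0.297 for Fbxo32, -0.464 and 0.440 for Fbxo30). The difference between batches was not tested.

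The genes closest to each member in both diets were named by the smaller of the CD and HFD correlations over all gene symbols. Klhl38, a kelch protein gene, was closest to Fbxo32 (r of 0.919 in CD and 0.928 in HFD) and stood second to Fbxo32 itself for Trim63 (0.883 and 0.878). Zfyve1, whose product marks sites of autophagosome formation, was also among the 3 closest genes to both (0.830 and 0.837 with Fbxo32, 0.855 and 0.891 with Trim63). Arrdc2 was closest to Ddit4 (0.844 and 0.858), and Fkbp5 was among the 3 closest genes to Ddit4 (0.766 and 0.793) and to Cdkn1a (0.761 and 0.820). Autophagy genes were closest to Fbxo30 (Gabarapl1, 0.821 and 0.819) and Eif4ebp1 (Ulk1, 0.811 and 0.834). Ufd1l was closest to Foxo3 (0.829 and 0.803), Tenc1 to Fbxo21 (0.681 and 0.618) and Klhl38 to Klf15 (0.706 and 0.652).

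In the opposite direction Ky, a muscle gene whose loss causes kyphoscoliosis in mice, was the most negatively correlated gene for 4 of the members. Its r was -0.847 in CD and -0.824 in HFD with Trim63, -0.735 and -0.788 with Foxo1, -0.688 and -0.697 with Cdkn1a and -0.623 and -0.714 with Ddit4. Heatr5a was the most opposed to Fbxo32 (-0.798 and -0.801) and Mkl1 to Klf15 (-0.571 and -0.659). These correlations describe 42 CD and 37 HFD arrays and were picked as extremes, so no p is attached.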

How the data were processed

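Affymetrix Mouse Gene 1.0 ST arrays were used, and the authors deposited a log-like score for each probeset, scaled to a mean of 8.0 and an SD of 2.0 on each array. Affymetrix Expression Console is named in the submitters' processing notes, and the log base, summarization, background method, genome build and any batch correction were not given in the sources used here. All value columns were used, arrays carry no counting depth, and their number limits the precision. The BXD92 column was matched to the title BXD92a.

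Diet was fitted with limma 3.58.1 (R 4.3.3) on all 79 arrays and 35556 probesets with diet and batch as terms, in place of the Student's test the study names for arrays, which is an alternative. The parental difference came from a limma fit with a coefficient per strain, which assumes that the parents vary like the paired strains. Correlations used Python 3.11.15 (numpy 2.4.6, scipy 1.17.1) with permutation tests of 100000 draws after batch means were removed within each diet. Cross-diet p-values were adjusted over all probesets with the t distribution. Scripts were tested on simulated data. The members, lists and tests were chosen with earlier results of these data known. Genes are named by a rule, which takes the members, the 3 most alike genes and the most opposed gene of each, and up to 2 called genes per list and direction, while further list genes (Pdk4, Nr3c1, Tsc22d3, Errfi1 and Lep) and single strains were chosen after their values were seen. The marker genes Acta1, Ckm and Cdh5 are named outside the rule as well.

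Arrays of the same inbred strain were matched by the strain in their labels. The pairs were used for the differences by strain, the cross-diet correlations and the fit with strain as a block. The main diet fit, with diet and batch as terms, did not use them. Its SE and p-values therefore treat the arrays of a strain as independent. What remained after diet means were taken off correlated between the arrays of a strain at -0.136 to 0.395 (median 0.214), over 0.1 in 33 of 37 strains.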

Additional observations from a re-analysis of the deposited data

How the results depend on the processing

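Of the diet differences of single genes, 5 changed direction under an alternative. Fbxo30 was -0.02 with the olfactory receptor covariate, and with the glucocorticoid score, an alternative chosen after seeing the data, Foxo3 was 0.066, Fbxo21 0.007, Ddit4 0.05 and Cdkn1a 0.19. The 4 genes called over all arrays became 0 in batch 1 alone, 1 in batch 2 alone, 2 with the adipocyte covariate, 2 with the macrophage covariate and 1, Cdkn1a, with the glucocorticoid covariate (the covariates other than adipocyte, slow fibre and olfactory receptor were also added after seeing the data). The fits within a batch hold fewer arrays. Over all probesets the calls were 13551, and 4491 in batch 1 alone, 8691 in batch 2 alone and 5292 without dim probesets, of which only 17778 were tested. Of 35556 probesets the fit with the adipocyte covariate called 11096, with the macrophage covariate 10726 and with the glucocorticoid covariate 14020. The count was 11033 with the olfactory receptor covariate, 12756 over the paired strains alone and 13957 after median centring. Strain as a replicate block called 14441 probesets and 5 of the 10 genes, adding Eif4ebp1, and changed no other call on the members. Eif4ebp1 was likewise added by the paired strains alone and by the olfactory receptor covariate, with 5 genes called in each. Centring arrays on their median left 3, with Fbxo32 at an adjusted p of 0.0523 by limma. Leaving out 1 strain at a time gave 3 to 5 called genes, with 3 without BXD75, and 13109 to 14074 probesets. For the cross-diet correlation it gave 0 to 6 called genes, 6 without BXD68 and 0 without BXD44 or BXD65, and the cause was not tested. The share of all probesets called in those fits is not given, so these counts are not read as particular to the members. The pairs of genes past the threshold numbered 36 to 40 in CD, 35 to 42 in HFD and 37 to 44 for the difference under the 8 alternatives. No member was called between the parents under any of the 2 alternatives. The median range of the 10 genes was 1.203 units in CD and 1.333 in HFD, and 0.772 and 0.810 between the 10th and 90th percentiles. The values are pools on arrays scaled to 1 mean and SD, so absolute change in total RNA is not measured.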
